A study of Rattus norvegicus with 12 samples.

Results

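Osmr, Olr1, Ripk2, Tifa, Nos2, Gbp5, Tgm1, Rnd1, Lcn2 and Fgf23 were followed in the livers of 12 obese rats, 4 on each of 3 diets. They were picked by name, with results of these data known, as inflammation-inducible genes whose signals differed widely between livers, and they are 10 of the 14506 genes with a probe set of a single symbol. Each of the 10 has 1 such probe set. The SDs over the 12 livers ran from 2.1 to 2.61 on the log2 scale for these 10 genes, against a median of 0.305 over 15310 probe sets, and all 10 stood among the 15 largest. Just inside that range were Fgf23 (2.11) and Nos2 (2.1), and just outside it came the chemokine genes Cxcl9 (2.03) and Cxcl1 (2.02). Cxcl10, Pnpla3, G6pc1, Sdr16c6 and A2m were also among the 15 and were not picked. Because the spread chose the genes, their levels, spread and correlations are given as descriptions, with no test. Only the differences between diets carry p-values, from limma's fit over all probe sets.

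The rats were males of the strain labelled Diet-induced obese Sprague-Dawley. They ate a high fat, high sucrose diet freely from 12 to 20 weeks of age, for 8 weeks, at 4.6 kcal per gram with 10% of energy from protein. The control diet drew that protein from casein, the dairy diet from skim milk powder, and the leucine diet from casein (7.1% of energy) and free leucine (2.9%). An effect of leucine itself and one of the lower casein cannot be told apart, nor can milk protein and the rest of the powder, and every group was obese and on the rich diet. RNA of each liver was hybridised to 1 Affymetrix Rat Gene 1.0 ST array, and the deposited values are log2 signals, 1 per probe set and array, from 1.06 to 14.37. A difference of 1 is a 2-fold difference in signal, and levels of different probe sets are not compared. The labels number 4 liver samples per diet, read here as separate rats, and p-values measure the spread between them.

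Array medians lay between 4.43 and 4.62 and array SDs between 2.07 and 2.33. Dairy liver 3 had the lowest SD and the highest median (2.07 and 4.62), followed by casein liver 4 (2.14 and 4.57). The hepatocyte markers, such as albumin (Alb, 13.46 to 14.08), had a mean log2 signal between 11.97 and 12.56 in every liver. Whole liver RNA was measured, so a difference in the number of cells of a type cannot be told apart from a difference in RNA per cell.

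In a quiet liver most inducible inflammatory genes are weakly transcribed. Bacterial products, interleukin 1 and tumour necrosis factor switch them on through NF-kB, interferon gamma through its own receptor, and interleukin 6 and oncostatin M through STAT3. Hepatocytes answer the last of these signals with secreted acute phase proteins, while Kupffer cells, endothelium and arriving neutrophils make much of the cytokine, chemokine and nitric oxide response.

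Because the genes move together, the promoters of those with an entry in the RefSeq table (GRCr8 build, 300 bases, 250 before and 50 after the annotated start) were read, which were 6 of 10. The 3 with a match to the NF-kB motif are printed 5′ to 3′ with every motif match in capitals. They lie at chr2:233910749-233911048, plus strand, chr2:218932636-218932935, plus strand, and chr3:36081731-36082030, minus strand.
Gbp5: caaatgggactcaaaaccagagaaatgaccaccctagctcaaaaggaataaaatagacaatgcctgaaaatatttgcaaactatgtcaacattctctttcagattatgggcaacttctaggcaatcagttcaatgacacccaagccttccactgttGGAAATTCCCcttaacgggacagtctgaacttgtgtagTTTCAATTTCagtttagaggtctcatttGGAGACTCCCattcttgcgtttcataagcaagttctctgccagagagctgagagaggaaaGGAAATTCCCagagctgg
Tifa: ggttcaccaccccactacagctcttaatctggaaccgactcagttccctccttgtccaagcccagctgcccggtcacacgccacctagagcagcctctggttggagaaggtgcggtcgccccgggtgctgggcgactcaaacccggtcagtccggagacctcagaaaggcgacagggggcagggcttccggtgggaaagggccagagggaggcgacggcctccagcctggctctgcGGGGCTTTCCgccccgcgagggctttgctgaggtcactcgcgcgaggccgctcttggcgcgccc
Lcn2: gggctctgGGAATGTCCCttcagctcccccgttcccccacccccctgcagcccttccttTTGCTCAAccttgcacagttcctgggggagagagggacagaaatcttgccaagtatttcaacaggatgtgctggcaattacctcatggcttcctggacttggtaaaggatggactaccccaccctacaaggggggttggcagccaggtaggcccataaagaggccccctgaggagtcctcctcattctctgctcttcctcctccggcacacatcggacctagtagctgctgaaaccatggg
On both strands, the NF-kB motif was matched 3 times in the Gbp5 window and once each in those of Tifa and Lcn2, in 3 of 6 promoters in all, against 7.6% of 27457 promoters of that length. Gbp5 also held the interferon-stimulated response element (ISRE), on the minus strand, which 3.77% of promoters hold. Lcn2 held the C/EBP motif TTGCNNAA, which 10.5% hold. The AP-1 motif TGANTCA was in the windows of Olr1 (TGAGTCA, from base 221) and Osmr (TGATTCA, from base 218), against 7.33% of all promoters. The STAT motif TTCNNNGAA was in 0 of 6, against 8.68%. No motif overlapped another in these windows, and a match is a description of letters, not a binding site.

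The receptors come first. Osmr, the chain that pairs with gp130 to bind oncostatin M, stood at 6.51, 4.56, 10.05 and 7.42 in casein livers 1 to 4, at 4.98, 9.0, 5.61 and 9.58 in dairy livers 1 to 4 and at 4.67, 7.68, 9.83 and 9.44 in leucine livers 1 to 4. Its highest and lowest livers, casein liver 3 and casein liver 2, had eaten the same diet and differed 45.1-fold. Olr1, the lectin-like receptor for oxidised LDL, stood at 3.09, 3.10, 7.84 and 4.53 in casein livers 1 to 4, at 2.91, 7.58, 4.05 and 8.30 in dairy livers 1 to 4 and at 3.02, 4.30, 8.26 and 7.04 in leucine livers 1 to 4. The widest step between neighbouring livers, 2.51, separated 5 livers (casein liver 3, dairy livers 2 and 4, leucine livers 3 and 4) from the other 7, and each diet had livers on both sides of it.

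Of the signalling adaptors, Ripk2, the kinase that relays NOD receptor signals to NF-kB, stood at 6.72, 5.40, 10.34 and 8.34 in casein livers 1 to 4, at 5.44, 10.49, 6.43 and 10.48 in dairy livers 1 to 4 and at 5.94, 9.28, 11.55 and 9.71 in leucine livers 1 to 4. Leucine liver 3 was highest and casein liver 2 lowest, a 71-fold range. Tifa, the TRAF-binding adaptor that answers bacterial sugar phosphates, stood at 5.57, 5.87, 10.37 and 5.14 in casein livers 1 to 4, at 5.52, 9.82, 6.70 and 9.69 in dairy livers 1 to 4 and at 4.99, 7.33, 10.03 and 9.93 in leucine livers 1 to 4. In the casein group only liver 3 stood high (10.37), and the other 3 lay between 5.14 and 5.87, so that the casein SD (2.44) came from that liver.

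Among the effectors, Nos2, the inducible nitric oxide synthase, stood at 4.27, 4.04, 8.29 and 4.68 in casein livers 1 to 4, at 3.91, 8.99, 5.21 and 8.79 in dairy livers 1 to 4 and at 3.21, 4.88, 8.02 and 5.54 in leucine livers 1 to 4. It was high in casein liver 3, dairy livers 2 and 4 and leucine liver 3 (8.02 to 8.99), and leucine liver 4 stood at 5.54, below the widest step (2.48). Gbp5, an interferon-inducible GTPase of cell-autonomous defence and inflammasome assembly, stood at 6.23, 5.07, 10.23 and 7.77 in casein livers 1 to 4, at 4.77, 10.39, 6.34 and 10.18 in dairy livers 1 to 4 and at 4.78, 7.74, 9.74 and 8.93 in leucine livers 1 to 4. Its values were spread more evenly, with a widest step of 1.40. Tgm1, a transglutaminase best known for cross-linking proteins of the skin barrier, stood at 5.44, 5.03, 11.54 and 6.93 in casein livers 1 to 4, at 5.28, 10.90, 6.77 and 10.11 in dairy livers 1 to 4 and at 4.74, 5.96, 10.71 and 9.70 in leucine livers 1 to 4. This was the gene with the largest SD of all 15310 probe sets, with a range of 111-fold from leucine liver 1 to casein liver 3. Rnd1, a small GTP-binding protein that loosens actin bundles and cell adhesion, stood at 5.06, 4.17, 9.64 and 5.52 in casein livers 1 to 4, at 4.45, 9.45, 7.19 and 10.39 in dairy livers 1 to 4 and at 4.49, 8.60, 10.48 and 8.35 in leucine livers 1 to 4. Leucine liver 2 (8.60) and dairy liver 3 (7.19) were nearer to the high livers for Rnd1 than for Tgm1, where they stood at 5.96 and 6.77.

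The secreted products are Lcn2, which binds bacterial siderophores and so withholds iron, and Fgf23, the phosphate-lowering hormone made mainly in bone. Fgf23 stood at 3.49, 3.73, 7.93 and 3.95 in casein livers 1 to 4, at 3.84, 6.12, 4.51 and 8.38 in dairy livers 1 to 4 and at 3.62, 4.42, 9.48 and 6.11 in leucine livers 1 to 4. It exceeded 7 in casein liver 3, dairy liver 4 and leucine liver 3 alone, and all other livers lay at or below 6.12. Lcn2 stood at 10.47, 6.61, 11.69 and 12.14 in casein livers 1 to 4, at 12.12, 13.10, 9.89 and 12.62 in dairy livers 1 to 4 and at 6.98, 11.67, 12.36 and 12.36 in leucine livers 1 to 4. It was low in casein liver 2 and leucine liver 1 alone, and the widest step (2.91) lay between those 2 and the other 10 livers.

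**Figure D1:**
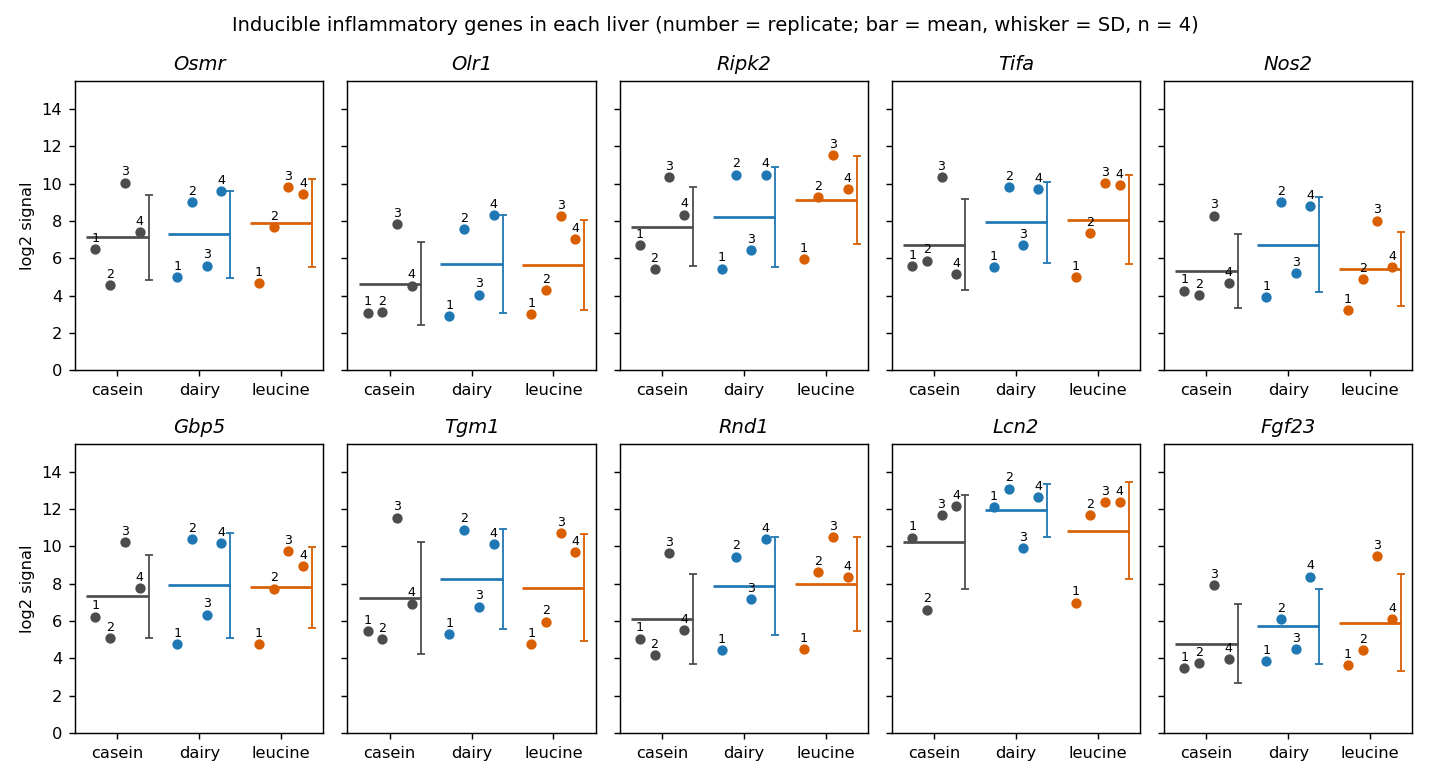
Log2 signal (vertical axis) of each gene in each of 12 livers by diet; points are livers numbered by replicate, horizontal bars the diet means and whiskers the SD (n = 4). For every gene but Lcn2, whose 4 dairy livers all stand at 9.89 or more, each diet holds livers above and below that gene's own widest step, and for Tgm1 the casein livers alone run from 5.03 to 11.54.

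The same livers were high for most of the genes. Casein liver 3, dairy livers 2 and 4 and leucine livers 3 and 4 were the top 5 livers for 8 of 10 genes, the exceptions being Rnd1 and Lcn2. When each gene was centred and divided by its SD, the mean of the 10 genes was 1.19 in leucine liver 3, 1.11 in dairy liver 4, 1.07 in casein liver 3, 0.98 in dairy liver 2 and 0.59 in leucine liver 4. It then ran down through leucine liver 2 (-0.08), casein liver 4 (-0.32), dairy liver 3 (-0.50), casein liver 1 (-0.75), dairy liver 1 (-0.90) and casein liver 2 (-1.16) to leucine liver 1 (-1.22). The widest step in this order, 0.67, fell between leucine livers 4 and 2, and the next widest was 0.39. Each diet therefore had at least 1 liver above and at least 2 livers below that step. The mean of the 10 genes was not aligned with array spread (r = 0.13 with the array SD) or array median (r = -0.14). It ran with the first principal component of all probe sets (r = 0.98, 39% of the variance). The 10 are among those probe sets and were picked for their spread, so that r is not independent of the choice.

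Little of this spread lay between diets. The share of each gene's variance that lay between diets was 1.48% for Gbp5, 2.67% for Osmr, 2.84% for Tgm1, 5.16% for Olr1, 6.01% for Fgf23, 7.48% for Ripk2, 8.06% for Tifa, 10.1% for Nos2, 11.7% for Lcn2 and 13.4% for Rnd1. The median was 6.75%, beside a median of 16.7% over all 15310 probe sets, of which 58% had a larger share than Rnd1. With 3 groups of 4 and no difference in mean, 18.2% is the average share. For all 10 genes the range within every diet was wider than the span of the 3 diet means. Within diets the ranges ran from 3.20 (Lcn2 with dairy) to 6.51 (Tgm1 with casein), and the diet means spanned 0.60 (Gbp5) to 1.88 (Rnd1). The median share was 19.3% without casein liver 3, 15.2% without leucine liver 1 and 11% without dairy liver 1. It was 2.73%, 3.23% and 3.44% without casein livers 1, 2 and 4 in turn, and 5.04% to 8.65% without any other liver.

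Between dairy and casein, 0 of the 10 genes passed limma's test (adjusted p from 0.665 to 0.977), where 0.0849% of probe sets passed. The 10 were picked for a wide spread between livers. Most of that spread lay within diets, which widens their SEs. The median SD within diets was 2.36 for the 10 genes and 0.295 over all probe sets. Calls were therefore unlikely in any comparison unless the diets differed greatly. None had an unadjusted p under 0.05, as 10.9% of probe sets did. The 4 livers of one diet lay apart from the 4 of the other for 0 of 10 genes, against 4.27% of probe sets. The difference, dairy minus casein, was above 0 for each of the 10 genes, and for 7173 of the 15310 probe sets. It ran from 0.16 (Osmr) to 1.77 (Rnd1), with a median of 1.05 beside -0.02 over all probe sets. The genes ran together over the same livers (median r of 0.90 between pairs), so these are not 10 separate observations. For Rnd1 the means were 7.87 ± 2.64 with dairy and 6.10 ± 2.43 with casein (SD, n = 4), a difference of 1.77 ± 1.52 (SE, 95% interval -1.54 to 5.08, limma adjusted p = 0.698). For Lcn2 they were 11.93 ± 1.42 and 10.23 ± 2.51 (SD, n = 4), a difference of 1.70 ± 1.35 (SE, 95% interval -1.23 to 4.64, limma adjusted p = 0.665). The sign turned for Gbp5, Ripk2 and Osmr when single livers were left out, and for Tgm1 the difference ran from 0.15 to 2.47.

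Between leucine and casein, 0 of 10 genes passed limma's test (adjusted p = 0.999 for each), where 0% of probe sets passed and 507 (3.31%) had an unadjusted p under 0.05. The diets overlapped for every one of the genes, against 2.44% of probe sets that lay apart. Differences, leucine minus casein, ran from 0.09 (Nos2) to 1.88 (Rnd1, ± 1.52 SE, 95% interval -1.43 to 5.19), with a median of 0.89 beside -0.03 over all probe sets. For 6 of 10 genes the sign turned when some single liver was left out. Both comparisons share the casein livers, in which 3 of 4 stood below the widest step, so their directions are not independent of each other.

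Between dairy and leucine, 0 of 10 passed (limma adjusted p from 0.848 to 0.996), where 0% of probe sets passed and 1064 (6.95%) had an unadjusted p under 0.05. None lay apart between these diets, against 5.09% of probe sets. The difference, dairy minus leucine, was above 0 for 5 genes and below 0 for 5, from -0.91 (Ripk2) to 1.31 (Nos2), and 9 of 10 turned sign without some single liver. Over all 3 diets limma's F test called 0 of the 10 genes (adjusted p from 0.867 to 0.984) and 0.0327% of probe sets, and 0 of 10 had an unadjusted p under 0.05, against 7.76% of probe sets. SEs of the differences were 1.33 to 1.72, so that 95% intervals reached beyond 2 on at least one side of 0 for each gene, and differences of 4-fold between diets were within them.

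**Figure D2:**
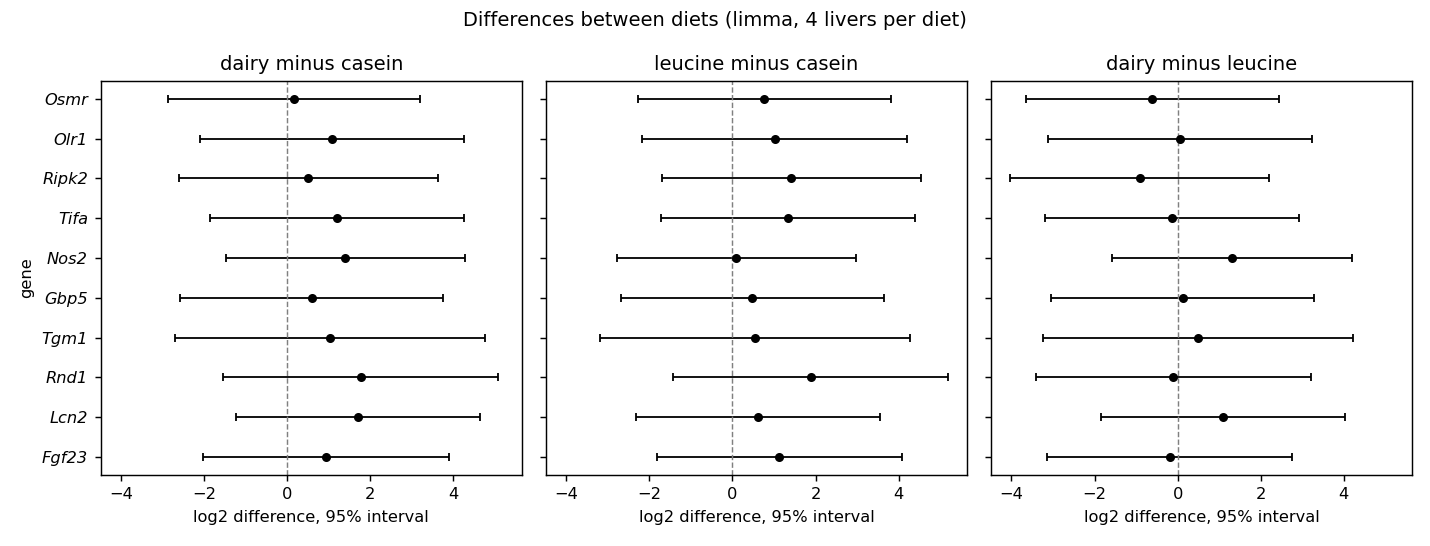
Log2 difference (horizontal axis) between each pair of diets for the 10 genes, with the 95% interval from limma (4 livers per diet). Every interval includes 0, and the largest estimates are those of Rnd1, 1.77 for dairy minus casein and 1.88 for leucine minus casein.

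The 10 genes were correlated with each other over the 12 livers. Pearson's r over the 45 pairs ran from 0.54 to 0.98 with a median of 0.90, and Spearman's rho from 0.51 to 0.96 with a median of 0.87. All 36 pairs without Lcn2 had an r of 0.84 or more. The highest was that of Olr1 and Tgm1 (0.98), followed by Osmr with Ripk2, Osmr with Gbp5, and Gbp5 with Ripk2 (0.97 each). With diet means removed the median was 0.93, and without the 2 livers farthest from the median, leucine liver 3 and dairy liver 4, it was 0.88. The livers were unevenly spaced, and over the 7 livers below the widest step the median was 0.68, with pairs from 0.22 to 0.96. The points of each correlation share their arrays, and the genes were picked with results of these data known, so no p is given.

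**Figure D3:**
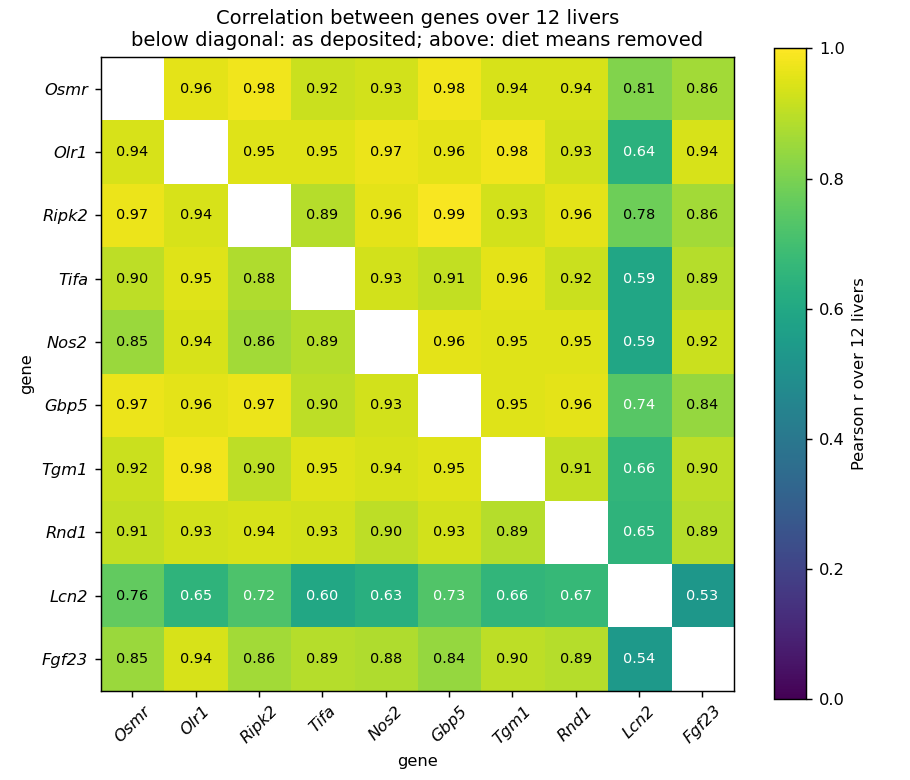
Pearson r over 12 livers for each pair of genes (both axes), with the deposited values below the diagonal and with diet means removed above it. The row and column of Lcn2 are lowest, with r between 0.54 and 0.76 below the diagonal, where the other pairs lie between 0.84 and 0.98.

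Lcn2 ran less closely with the other 9 than they did with each other. Its r with them ran from 0.54 (Fgf23) to 0.76 (Osmr). By rank the gap was smaller, with Spearman's rho from 0.51 (Tifa) to 0.79 (Ripk2), where pairs without Lcn2 had 0.78 to 0.96. In dairy liver 1 the other 9 genes averaged -1.06 in SD units, close to the lowest livers, and Lcn2 stood at 12.12, above its value in casein liver 3 (11.69), where the 9 averaged 1.15. Casein liver 4 was alike, with Lcn2 at 12.14 and the 9 at -0.42. The gene nearest to Lcn2 over all those ranked was Orm1, the acute phase protein orosomucoid, with r = 1.00 after diet means were removed (log2 signals 10.52 to 13.18). Next came Wfdc21 (0.98) and the rat acute phase protein A2m (0.96, 5.98 to 12.90). The mean of 18 measured acute phase genes had an r of 0.96 with Lcn2 and of 0.82 with the mean of the other 9. That mean was taken over unscaled log2 signals, so A2m, with the widest range, weighed most in it. Single genes of the list had an r with Lcn2 from 0.17 (Il1rap) and 0.24 (Itih3) to 1.00 (Orm1). The lowest liver means of the list, 11.34 in each case, were those of casein liver 2 and leucine liver 1. These were the livers low for Lcn2, and A2m stood there at 5.98 and 7.47. How far the r of Lcn2 with these genes rests on those livers was not tested.

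**Figure D4:**
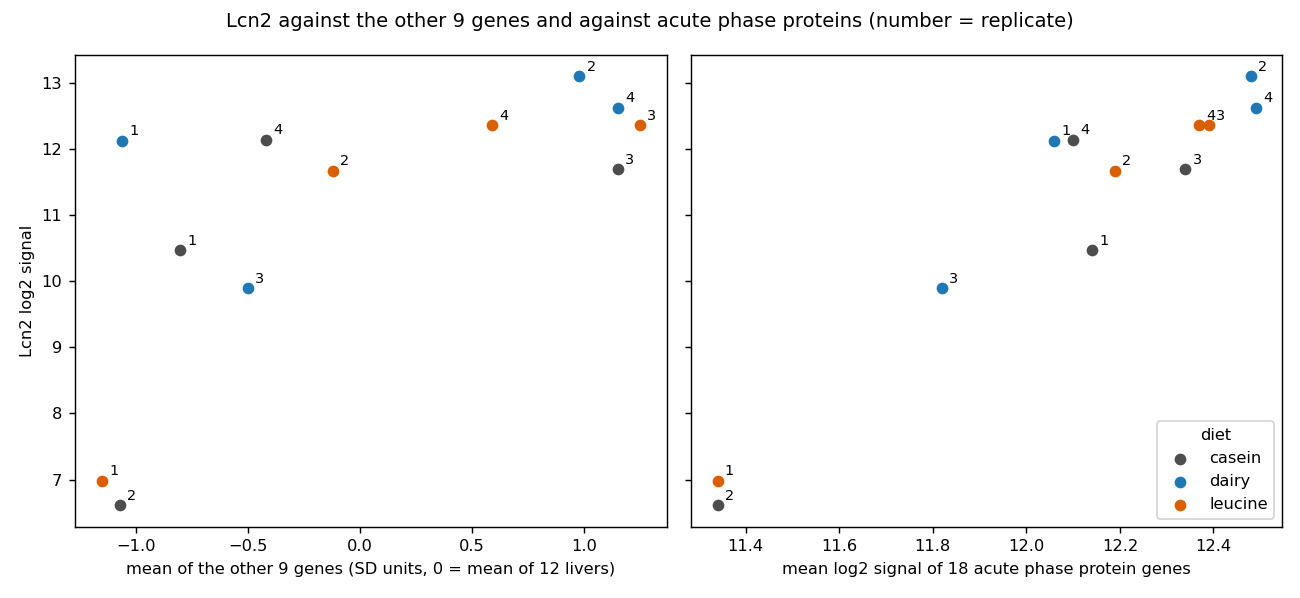
Lcn2 log2 signal (vertical axis) against the mean of the other 9 genes in SD units (left) and against the mean log2 signal of 18 acute phase protein genes (right), with livers coloured by diet and numbered by replicate. Dairy liver 1 is at 12.12 for Lcn2 and at -1.06 on the left axis, while casein liver 2 and leucine liver 1 are at the low end of both panels.

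Genes outside the 10 were ranked by their r with the mean of the 10 after diet means were removed (12 livers, 10810 genes with 1 probe set each above the dimmest 25%). The first 12 were Slc4a4, Snapc2, Vcan, Runx1, S1pr2, Fas, Cxcl11, Rhbdf2, Shq1, Csf3r, Arid5a and Esam, with r of 0.98 or 0.99. Cxcl11, an interferon-induced chemokine, ran from 6.02 to 11.23, Runx1, a transcription factor of blood cells, from 5.31 to 9.60, and S1pr2, a sphingosine phosphate receptor, from 4.83 to 9.22. The death receptor gene Fas ran from 5.85 to 9.56 and the matrix proteoglycan gene Vcan from 3.36 to 6.84. The 6 genes that ran most nearly opposite were Stxbp4, Fbxo21, Cpt2, Id4, Gulo and Tbc1d24 (r = -0.97 or -0.96). Cpt2, which passes long-chain fatty acids into mitochondrial oxidation, ran from 7.33 to 8.93, and Gulo, the last enzyme of vitamin C synthesis, from 9.19 to 11.12. Of the ranked genes 13.7% had an r of 0.7 or more and 10.4% of -0.7 or less, so a high r was common on these arrays.

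The 3 genes nearest to Osmr alone were Irak3, Dram1 (0.99 each) and Steap4 (0.98), and those nearest to Olr1 were Runx1, Clec4e and Csf3r (0.99 each). For Ripk2 they were Fcnb, Fgr (0.99 each) and Dram1 (0.98), and for Tifa Irf8 (0.99), Sgms1 (0.98) and Purb (0.97). For Nos2 they were Ccl4, Trem1 (0.99 each) and Psmb10 (0.98), and for Gbp5 Fgr, Fcnb and Cxcl11 (0.99 each). For Tgm1 they were Piezo1, Runx1 (0.99 each) and Sbno2 (0.98), for Rnd1 Zc3h12a (0.98), Socs3 and Birc3 (0.97 each), and for Fgf23 B3gnt2 (0.99), Lipg (0.98) and S100a8 (0.97). Several of these, Csf3r, Clec4e, Fcnb, Fgr and Trem1, are known from myeloid cells.

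Lists of each gene's partners were set beside the 10, with r again taken against their mean after diet means were removed. In the 3 comparisons of diets 0 genes of these lists passed limma's test in either direction. In the oncostatin M and interleukin 6 list, 7 of 14 measured genes had an r of 0.7 or more with the mean of the 10, against 10.4% of 14496 genes. These were the kinase Jak2 (0.97, 5.85 to 9.82), the feedback inhibitor Socs3 (0.96, 4.52 to 9.59), Pim1 (0.95), Il6 (0.91), Stat3 (0.91, 8.29 to 10.63), the shared receptor chain Il6st (0.82) and Socs1 (0.72). The ligand Osm (r = -0.50, 4.25 to 5.18) and the receptor chains Lifr (-0.11) and Il6r (-0.43) did not run with the mean of the 10.

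Around Ripk2 and Tifa, 16 of 24 NF-kB pathway genes had an r of 0.7 or more. The kinase Ikbkb (0.97, 7.18 to 8.54), the subunit Nfkb2 (0.96), the inhibitor Nfkbie (0.96, 4.63 to 8.12) and Ripk1 (0.96) were foremost, and the NOD receptor Nod1, which acts through Ripk2, was at 0.95 (5.80 to 8.73). Traf6 (0.25), which binds Tifa, and Map3k7 (0.34) were not among them. Around Gbp5, 11 of 13 genes of the interferon gamma response were, with Cxcl11 (0.99), Irf8 (0.96), Ifngr2 (0.96) and Gbp2 (0.95, 4.95 to 9.47) first. Ifng itself ran from 2.42 to 2.98, below every array median (4.43 to 4.62), and had an r of -0.14. At such a signal a low r does not show that the transcript stayed level.

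Of the cytokines, chemokines and adhesion molecules 21 of 24 had an r of 0.7 or more, led by Icam1 (0.97, 6.56 to 11.15), Vcam1 (0.95), Ccl4 (0.94) and Selp (0.93), and Tnf (0.90) and Il1b (0.88) were among them. Of the acute phase proteins 10 of 18 did so, led by Lbp, the carrier of bacterial lipopolysaccharide (0.93, 9.82 to 13.01), Serpina3n (0.90), Fgb (0.87) and Fga (0.86).

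Of 5 transglutaminases 1, Tgm2, had an r of 0.7 or more (0.98, 7.39 to 10.94), while Tgm3 (0.18), Tgm4 (-0.18) and F13b (-0.60) did not. The neuronal and endothelial synthases Nos1 (-0.30) and Nos3 (-0.36) did not run with the mean of the 10. In the nitric oxide list the arginine transporter Slc7a1 alone had an r above 0.7 (0.94, 4.73 to 7.43), Gch1, which makes the cofactor of Nos2, was at 0.65, and 6 of 15 genes were at -0.7 or less. The latter included Gchfr, the inhibitor of Gch1 (-0.87, 7.23 to 8.54), Spr (-0.86) and Arg1, which competes for arginine (-0.75, 10.03 to 11.34).

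Among iron genes beside Lcn2, Slc11a2 (0.95), Hmox1 (0.89), Mmp9 (0.88), Slc11a1 (0.88) and Tfr2 (0.76) had an r of 0.7 or more, and Ftl1 (-0.85), Slc40a1, the iron exporter (-0.80, 8.52 to 10.49), and Lrp2 (-0.71) of -0.7 or less. Of the FGF23 list only Fgfr2 ran with the 10 (0.95, 7.77 to 9.73). Fam20c, a kinase that phosphorylates FGF23 (-0.85), Fgfr3 (-0.81) and Fgfr4 (-0.80) ran against them, and the co-receptor Kl was at -0.16. Of 10 scavenger receptors, Cxcl16 (0.90) and Marco (0.78) had an r of 0.7 or more, Scarf1 was at -0.72 and Cd36 at -0.17.

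Markers of other cells moved with the 10 genes to unequal degrees. Of 11 neutrophil markers 8 had an r of 0.7 or more, led by Csf3r (0.98, 3.94 to 7.52), Cxcr2 (0.96, 2.95 to 6.43) and S100a9 (0.96, 3.30 to 8.35). The liver mean of the list ran from 3.49 to 5.21 with casein, 3.81 to 5.75 with dairy and 3.50 to 5.47 with leucine (r = 0.98 with the mean of the 10). The granule genes Mpo (3.47 to 4.44) and Elane (3.41 to 3.94) stayed within narrow ranges at low signals, with r of -0.23 and 0.26. Of 12 Kupffer cell and macrophage markers 3 had an r of 0.7 or more (Lyz2 0.92, Adgre1 0.79, Marco 0.78), while Clec4f, the defining Kupffer cell gene of rodents, had an r of -0.74 (6.75 to 9.25). Liver means of that list were 7.52 to 8.04 with casein, 7.12 to 8.32 with dairy and 7.30 to 8.46 with leucine.

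Of 11 lymphocyte markers the cytotoxic genes Gzmb (0.87, 5.55 to 9.04) and Nkg7 (0.82) and the T cell gene Cd3g (0.82) had an r of 0.7 or more, and Cd3e had -0.16 and Ms4a1 -0.03. The stellate cell and fibroblast list was split, with Des and Timp1 at 0.91 each, Acta2 at 0.80, Dcn at 0.74 and Lrat at -0.86. The collagen genes Col3a1 (-0.58), Col1a2 (-0.49) and Col1a1 (-0.33) had a negative r, and the median of the list was -0.01. Of 6 sinusoidal endothelial markers 2, the receptors Kdr (-0.89, 6.76 to 8.49) and Tek (-0.81), had an r of -0.7 or less. Fcgr2b (0.53), Pecam1 (0.38), Cdh5 (0.06, 5.69 to 6.51) and Lyve1 (-0.09) did not, and the list median was -0.01. Hepatocyte markers had a median r of -0.50, with 4 of 13 at -0.7 or less (Ahsg -0.86, Ttr -0.75, Alb -0.71, Apoa1 -0.70). Of 6 cholangiocyte and 5 erythroid markers none reached 0.7, and of 6 adipocyte markers 1 did, Cidec (0.94), which fatty hepatocytes also make. One further gene in each of the cholangiocyte and adipocyte lists lay just under that bound. Liver means of the lymphocyte list were 4.15 to 4.57 with casein, 4.22 to 4.51 with dairy and 4.05 to 4.42 with leucine. Those of the stellate cell list were 5.72 to 6.25, 5.96 to 6.46 and 5.80 to 6.11, and those of the endothelial list 7.26 to 7.55, 6.95 to 7.65 and 7.25 to 7.75. The part of any of these cell types in the levels of the 10 genes was not tested.

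**Figure D5:**
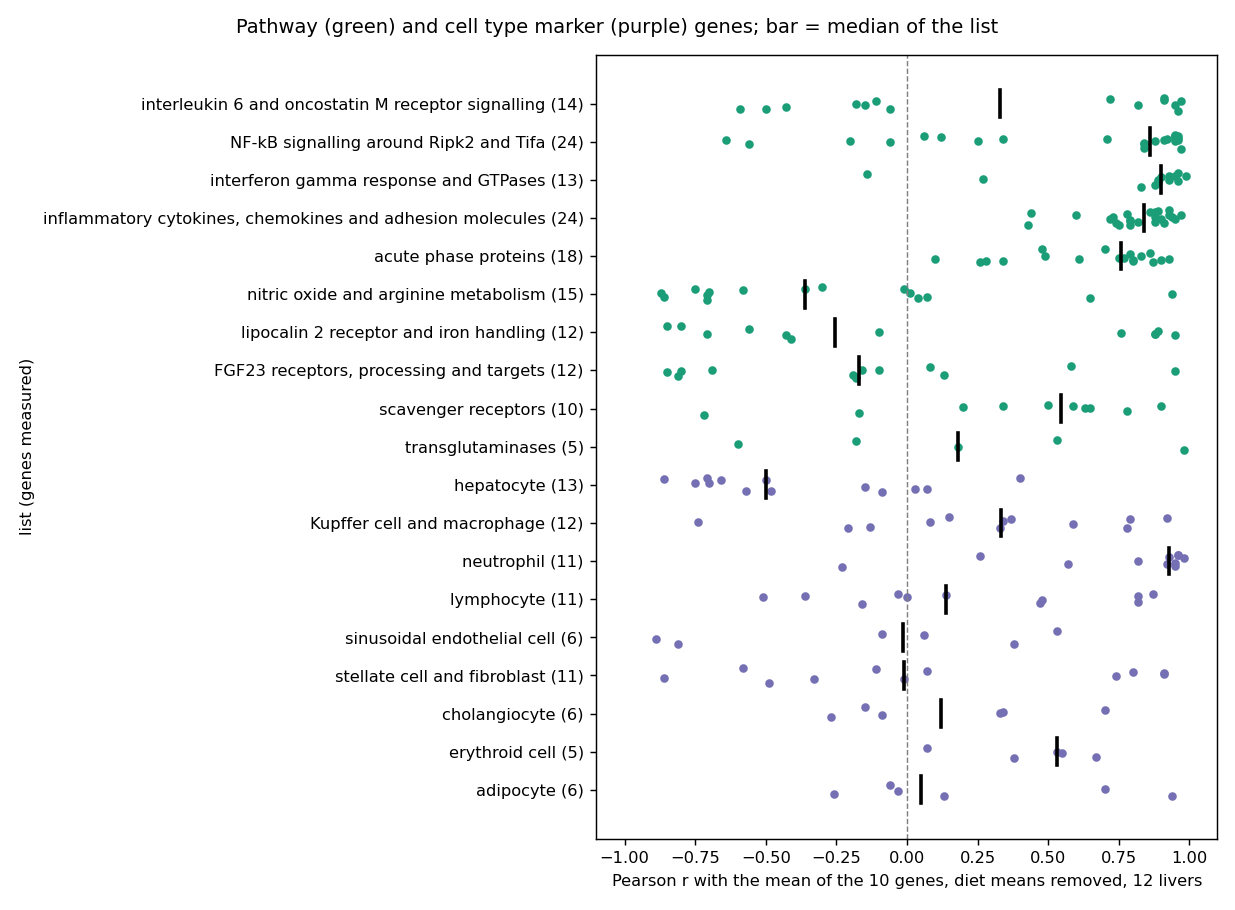
Pearson r of single genes with the mean of the 10 genes (horizontal axis, diet means removed, 12 livers) for 10 pathway lists (green) and cell type markers (purple), with 1 point per gene, a black bar at the list median and the number of measured genes in brackets. Medians reach 0.90 for the interferon gamma list and 0.93 for neutrophil markers, and the hepatocyte list has a median of -0.50.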

How the data were processed

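Liver RNA of 12 rats was measured on 1 array each. The authors deposited log2 signals per probe set, for which the submitters' processing notes name Affymetrix Expression Console. Not given in the sources used here are its version, the summarisation, the normalization and the build. Array SDs differed (2.07 to 2.33), and whether the processing left differences in scale between arrays was not tested. The number of arrays limits the precision.

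Groups were taken from the diet in the sample titles. Of 29214 probe sets, 15310 had exactly 1 symbol in the platform annotation, 323 had several and 13581 were not listed there and are unnamed here. Each of the 10 genes had 1 probe set, and the Entrez ID of all 10 matched RefSeq.

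Diets were compared by limma 3.58.1 under R 4.3.3 (lmFit on 3 diet means over 12 arrays, eBayes, 9 residual and 3.45 prior degrees of freedom), two-sided, with Benjamini-Hochberg adjustment over 15310 probe sets at 0.05, and the fit was tested on simulated data. Between-diet shares, correlations and likeness were computed in Python 3.11.15 with numpy 2.4.6. A gene with several probe sets was read from the one with the highest mean. The 10 genes and the lists were chosen with earlier results of these data known. Named beside the 10 were the 12 genes most like and the 6 most unlike their mean, the nearest to each, up to 4 per pathway list by r, and genes of the lists picked after their values were seen. One of the pathway lists is not reported here.

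The replicate numbers were not used as pairs. Alternatives were quantile normalization, median centring, a filter on dim probe sets, trend and robust eBayes, a replicate block, array weights, only the arrays of 2 diets, and leaving out each liver.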

Additional observations from a re-analysis of the deposited data

Results flagged for a closer look

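Chance sets apart the highest or lowest of 4 samples in about 1 in 20 groups, and 30 groups of correlated values (10 genes in 3 diets) were examined. In the casein group liver 3 stood far above the other 3 livers for Tifa (10.37), Fgf23 (7.93) and Nos2 (8.29). In the leucine group liver 1 stood far below the other 3 for Lcn2 (6.98).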

How the results depend on the processing

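Of the 30 differences between diets for the 10 genes, none moved by more than the SD within diets under quantile normalization or median centring. With 4 livers per diet, the loss of a single liver cannot move a difference that far, so only the sign is given for it. The sign turned without some single liver in 18 of the 30 and with a scaling in 1 (Olr1, dairy minus leucine, 0.05). The count of 13 probe sets called between dairy and casein became 22 with quantile normalization, 8 with trend and robust, 6 with only the arrays of these diets and 1182 with array weights. With single livers left out it ran from 3, when casein replicate 1 or dairy replicate 1 was dropped, to 237, when casein replicate 4 was, and it was 6 to 8 without casein replicate 2, dairy replicates 2 and 4 or leucine replicates 1 and 3. Between leucine and casein 0 probe sets were called, and 0 to 2 with single livers left out, 2 without leucine replicate 2. Between dairy and leucine 0 were called, also with each liver left out, and 1 with the replicate block. The F test called 5, against 0 with quantile normalization, 3 with the replicate block, 418 with array weights and 0 to 23 with single livers left out (0 without casein replicate 1, 2 or 3, 23 without casein replicate 4, and 2 or 3 without dairy replicate 1, 3 or 4 or leucine replicate 1 or 3). With the replicate block 19 probe sets were called between dairy and casein. Deviations from diet means of same-numbered livers had an r from -0.51 to 0.59, over 0.1 in 7 of 12 pairs (in all 3 pairs of replicate 1), and 2 of 12 livers correlated best with their own number, so the numbers were not taken as pairs. The median between-diet share of the 10 genes, 6.75%, ran from 2.73% to 19.3% with single livers left out. Their median SD within diets, 2.36, ran from 2.19 to 2.49. Their median r, 0.90, ran from 0.89 to 0.94. It was 0.87 as Spearman's rho and 0.93 with diet means removed. Chosen after seeing the data, it was 0.88 without the 2 livers farthest from the median, 0.68 over the 7 livers below the widest step and 0.93 without Lcn2. Of the 12 genes most like the 10, 7 were shared when diet means were kept, and of the 6 most opposite, 2. Averaging a gene's probe sets could give no other value, since each of the 10 has 1. The cause of these changes was not tested. Signal over background was not tested. The lowest values of Rnd1 (4.17), Olr1 (2.91), Nos2 (3.21) and Fgf23 (3.49) lay below every array median (4.43 to 4.62). So did all values of Ifng, Elane, Nos1, Kl, Tgm3, Tgm4, Cd3e and Ms4a1, and those of Mpo reached only 4.44. A low r of these genes with the 10 does not show that their transcripts stayed level.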

Other observations

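The genes with the largest spread between livers did not all run with the 10. Of the 5 others among the 15 largest SDs, the chemokine gene Cxcl10 had an r of 0.89 with their mean after diet means were removed (log2 signals 4.55 to 11.19) and A2m had 0.79 (5.98 to 12.90). G6pc1, the last enzyme of glucose release, ran the other way (r = -0.92, 4.83 to 12.54), as did Pnpla3, a lipase-like protein of lipid droplets (-0.80, 4.57 to 11.39), and Sdr16c6, a retinol dehydrogenase family gene (-0.70, 2.12 to 8.00). G6pc1 and Pnpla3 had 11.6% and 10.1% of their variance between diets, shares like those of Lcn2 and Nos2, and Sdr16c6 had 26.7%.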
